A study of Mus musculus with 60 samples.

Results

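The genes described here encode 10 integrin subunits of fibroblasts: the alpha subunits Itga1, Itga4, Itga5, Itga7, Itga8, Itga11 and Itgav and the beta subunits Itgb1, Itgb3 and Itgb5. They were taken by gene symbol from 3 tables of read counts, each of which listed 48440 genes, and all 10 were found in every table. The libraries came from mouse cancer-associated fibroblasts (CAFs), the activated fibroblasts of tumours, which the labels call tCAFs without explaining the prefix. Bulk RNA sequencing measured what contact with, or separation from, lung cancer cells did to these CAFs.

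The 8 groups differed in the cancer line and in the culture format. Multicellular aggregates, in which the cells are cultured together as clusters, held CAFs alone (titled CAF-GFP), CAFs with 393P cells or CAFs with 344SQ cells, with 3 replicates each. A second set of aggregates held CAFs with 344SQ_shCTL cells or CAFs with 344SQ_shZEB1 cells, again with 3 replicates each, where the names stand for a control short hairpin RNA and one against Zeb1. In the Boyden chamber, where a porous membrane parts the cell types, CAFs were grown alone, with 393P or with 344SQ, with 5 biological replicates per group and 3 technical libraries per replicate. Both lines come from mouse lung adenocarcinoma, and 393P is poorly metastatic and 344SQ metastatic. Every sample was enriched for CAFs by fluorescence-activated cell sorting before lysis, so the libraries describe the fibroblasts and whatever else passed the gate. Because the labels do not say whether replicates came from separate CAF isolates, errors and p-values measure the spread between these samples.

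Aggregate libraries held 757717 to 1258751 counts, libraries of the shRNA set 739530 to 2144803, and the summed Boyden replicates 4182944 to 8542262. Ribosomal RNA-like and mitochondrial genes took 40.8% to 49.3% of the counts in the aggregates, 43.6% to 59.7% in the shRNA set and 11.2% to 15.3% in the Boyden sums. At least 11 of 12 fibroblast markers were detected in every library. Leukocyte markers (9 genes) summed to 25.5 to 38.7 CPM in aggregates of CAFs alone, 22.8 to 27.2 CPM with 344SQ and 6.42 to 24.5 CPM with 393P. Of these, Cd68 had 20 to 31 counts per library of CAFs alone, and Ptprc had 0 counts in all 9 aggregate libraries. Carcinoma markers (12 genes) summed to 5.11 to 9.03 CPM in aggregates of CAFs alone and 11.1 to 27.3 CPM with 344SQ. With 393P they came to 18.3, 24.8 and 87.8 CPM, the last in replicate 3. In the shRNA set 3 libraries stood apart, with carcinoma sums of 1359 CPM (shCTL replicate 3), 996 CPM (shZEB1 replicate 2) and 433 CPM (shZEB1 replicate 3) against 31.2 to 59.2 CPM in the other 3. Mural markers (7 genes) summed to 307 to 357 CPM with shCTL and 196 to 513 CPM with shZEB1, against 23.2 to 261 CPM in the 9 aggregate libraries. Of these, Rgs5 stood at 120 to 142 and 43.0 to 176 CPM in the shRNA set and had 0 or 1 counts in each of the 9 aggregate libraries. Leukocyte markers in the shRNA set summed to 83.8 to 134 CPM with shCTL and 35.6 to 191 CPM with shZEB1. Levels are given as CPM, counts scaled to a common library size with edgeR's trimmed mean of M values, or TMM. In bulk libraries, fewer cells of a type and less RNA per cell cannot be told apart.

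Integrins are receptors made of an alpha and a beta subunit that link the extracellular matrix to the actin cytoskeleton. Itgb1 pairs with most alpha subunits: with Itga5 it binds fibronectin, with Itga1 and Itga11 collagens, with Itga7 laminins, and with Itga4 fibronectin and Vcam1. Itga8 with Itgb1, and Itgav with Itgb1, Itgb3 or Itgb5, bind ligands that carry the RGD motif, such as fibronectin, vitronectin and osteopontin, and the latent form of TGF-beta. Fibroblasts use them to assemble fibronectin, grip collagen and exert tension.

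Promoters of Itga5, Itga8 and Itgb5 are shown because these genes were called higher in the same comparison below; the RefSeq table used here held a window for 8 of the 10 members, and Itga7 and Itgb3 are the others. Each is the 250 bases upstream of the RefSeq start site in build GRCm38.p6, read 5′ to 3′ on the strand of the gene. The Itga5 window is chr15:103366792-103367041 (minus strand), that of Itga8 chr2:12301945-12302194 (minus strand) and that of Itgb5 chr16:33829415-33829664 (plus strand). Capitals mark matches to the searched motifs on either strand: the AP-1 motif TGANTCA, the TEAD motif GGAATG, the GC box GGGCGG and the CArG box of serum response factor.
Itga5: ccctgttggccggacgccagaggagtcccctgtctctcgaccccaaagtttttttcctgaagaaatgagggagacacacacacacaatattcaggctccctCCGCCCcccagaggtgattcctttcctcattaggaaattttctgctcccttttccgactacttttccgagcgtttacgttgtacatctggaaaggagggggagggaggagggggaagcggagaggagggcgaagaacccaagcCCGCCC
Itga8: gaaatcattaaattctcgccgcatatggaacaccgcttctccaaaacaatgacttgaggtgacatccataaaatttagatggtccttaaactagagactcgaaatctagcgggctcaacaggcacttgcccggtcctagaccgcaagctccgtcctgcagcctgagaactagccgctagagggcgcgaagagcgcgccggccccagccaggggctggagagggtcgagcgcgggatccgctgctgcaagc
Itgb5: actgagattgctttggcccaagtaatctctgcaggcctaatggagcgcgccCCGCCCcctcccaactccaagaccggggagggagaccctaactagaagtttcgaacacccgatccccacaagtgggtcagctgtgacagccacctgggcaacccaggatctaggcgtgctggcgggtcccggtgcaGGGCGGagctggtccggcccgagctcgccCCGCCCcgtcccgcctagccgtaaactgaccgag
GC boxes were the only matches in these windows, 2 in Itga5 and 3 in Itgb5, and the Itga8 window held none of the motifs. Among all 32851 windows of this length in the table, 32.7% held a GC box, 12.6% the TEAD motif, 6.75% the AP-1 motif and 1.47% a CArG box. Of the 8 member windows 4 held a GC box (Itga4, Itga5, Itgb1 and Itgb5), 1 the TEAD motif (Itgb1) and 0 the AP-1 motif or a CArG box. Such matches describe the letters only.

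Levels were compared between members as CPM per kb of exon. In aggregates of CAFs alone, Itga5 (40.0 ± 11.6 CPM per kb; SD, n = 3), Itgb1 (33.5 ± 9.97) and Itgb5 (27.0 ± 5.57) stood highest, and each overlapped the next in that order. Itgav followed at 10.7 ± 1.35 CPM per kb and Itgb3 at 2.03 ± 1.35, and the other 5 members had means of 1.20 CPM per kb or less. The order differed in the Boyden chamber. There CAFs alone had Itgb1 at 140 ± 15.4 CPM per kb (SD, n = 5), Itgav at 56.9 ± 7.08, Itgb5 at 26.3 ± 4.34 and Itga5 at 14.6 ± 0.760, with no overlap between neighbours down to Itga1 (1.73 ± 0.183), which ranked after Itga11 (2.80 ± 0.390). Itga4, an integrin subunit best known from leukocytes, had 0 or 1 counts in each aggregate library and 0 to 3 in each Boyden sum. Its counts were too low for a test in every table, and no change is given for it.

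**Figure D1:**
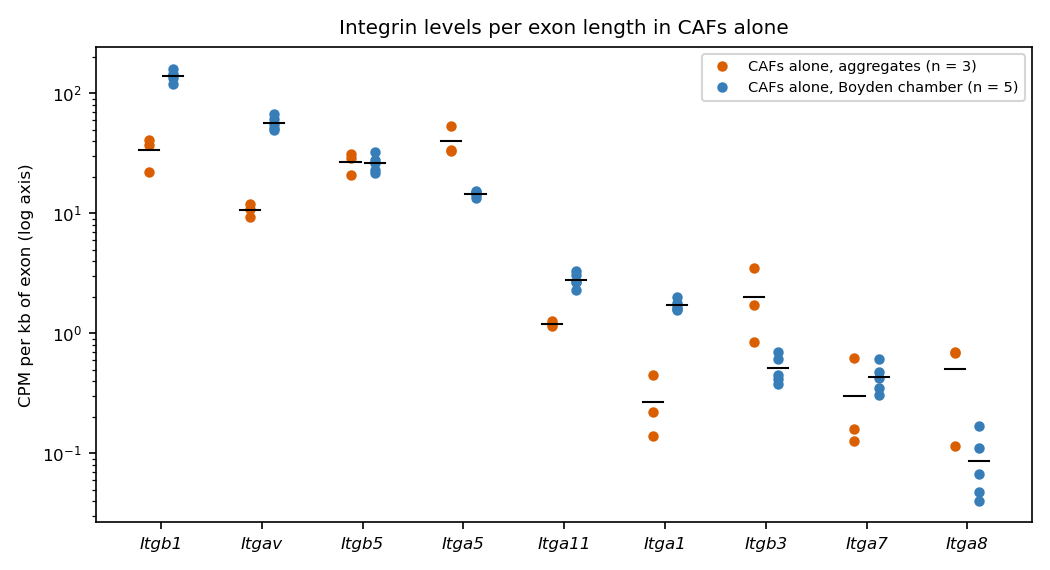
Levels of 9 integrin members in CAFs alone, as TMM-scaled CPM per kb of exon on a log axis, with a point per replicate and a bar at the mean; orange points are the 3 aggregate replicates and blue points the 5 Boyden replicates, and Itga4, at 0 in most libraries, is not drawn. Itgb1 and Itgav are higher in the Boyden chamber (Itgb1 at 140 against 33.5 CPM per kb) and Itga5 is higher in the aggregates (40.0 against 14.6 CPM per kb).

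Integrin genes of CAFs aggregated with 393P cells were compared first with those of CAFs aggregated alone. Itga5, Itga8, Itgb3 and Itgb5 rose, by 1.92-fold, 6.72-fold, 4.13-fold and 1.98-fold, while Itgav and Itgb1 did not pass the test. The count filter left 6 of the 10 members to test, and 4 of them were called higher and 0 lower at an adjusted p under 0.05. Itga8 was among the 6 only because of its counts with 393P, so its inclusion was tied to the difference tested. Without it 3 of 5 were called higher. Over all 7992 genes tested, 5.41% were called higher and 5.27% lower, 10.7% in all. In 13.3% of these genes every 393P replicate lay above every replicate of CAFs alone, and in 12.8% below (26.1% in all).

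Itga5 (ENSMUSG00000000555.6, chromosome 15, 103344286 to 103366763), the fibronectin receptor subunit, stood at 167, 263 and 162 CPM in CAFs alone and at 445, 327 and 357 CPM with 393P. Every 393P replicate lay above every replicate of CAFs alone, and the log2 change was 0.94 ± 0.18 (SE, edgeR's quasi-likelihood test with Benjamini-Hochberg adjustment, adjusted p = 0.000417). Itgb5 (ENSMUSG00000022817.14, chromosome 16, 33829665 to 33949338), which pairs with Itgav, stood at 103, 73.6 and 111 CPM in CAFs alone and at 188, 202 and 184 CPM with 393P. The 393P values were close together and all higher, with a log2 change of 0.99 ± 0.18 (adjusted p = 0.000196).

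Itgb3 (ENSMUSG00000020689.4, chromosome 11, 104608000 to 104670476), the other beta partner of Itgav in the set besides Itgb1, had lower levels and a larger change. It stood at 5.05, 20.7 and 10.2 CPM in CAFs alone and at 45.8, 54.2 and 38.8 CPM with 393P. No replicate overlapped, and the log2 change was 2.05 ± 0.35 (adjusted p = 8.35e-05). Itga8 (ENSMUSG00000026768.10, chromosome 2, 12106632 to 12301922), an RGD-binding subunit typical of contractile mesenchymal cells, had 1, 4 and 5 counts in CAFs alone (0.842, 5.16 and 5.11 CPM) and 22, 44 and 16 counts with 393P (20.2, 34.1 and 16.3 CPM). It passed the filter only through its counts with 393P, so its inclusion was tied to the difference tested. Its log2 change was 2.75 ± 0.62 (adjusted p = 0.00246). On the opposite strand, 5.05% of its exon bases overlap E030013I19Rik, and the strand setting of the counting is not given in the sources used here.

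The partners of these subunits gave other values. Itgav (ENSMUSG00000027087.11, chromosome 2, 83724397 to 83806916) stood at 116, 129 and 100 CPM in CAFs alone and at 104, 122 and 118 CPM with 393P, a log2 difference of 0.01 ± 0.17 (95% interval -0.34 to 0.35, adjusted p = 0.993). Itgb1 (ENSMUSG00000025809.15, chromosome 8, 128685654 to 128733200) stood at 168, 151 and 90.9 CPM and at 163, 163 and 153 CPM, with replicates that overlapped and a log2 difference of 0.22 ± 0.19 (interval -0.15 to 0.60, adjusted p = 0.58). These intervals leave room for changes of up to 0.35 and 0.60 on the log2 scale.

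Per kb of exon, the order of members with 393P was Itga5 (76.3 ± 12.5 CPM per kb; SD, n = 3), Itgb5 (53.8 ± 2.73), Itgb1 (39.1 ± 1.39), Itgav (10.7 ± 0.875), Itgb3 (7.84 ± 1.31) and Itga8 (3.19 ± 1.27), and no neighbours among these 6 overlapped. The collagen receptor subunits were near the limit of counting in aggregates. Itga11 had 7, 5 and 6 counts in CAFs alone, 0, 2 and 1 with 393P and 1, 0 and 3 with 344SQ. Itga1 had 10, 2 and 4 counts in CAFs alone, 1, 4 and 11 with 393P and 11, 9 and 8 with 344SQ, and Itga7 had 1 to 12 counts in all 9 libraries. None of these 3 genes was tested in the aggregates alone.

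**Figure D2:**
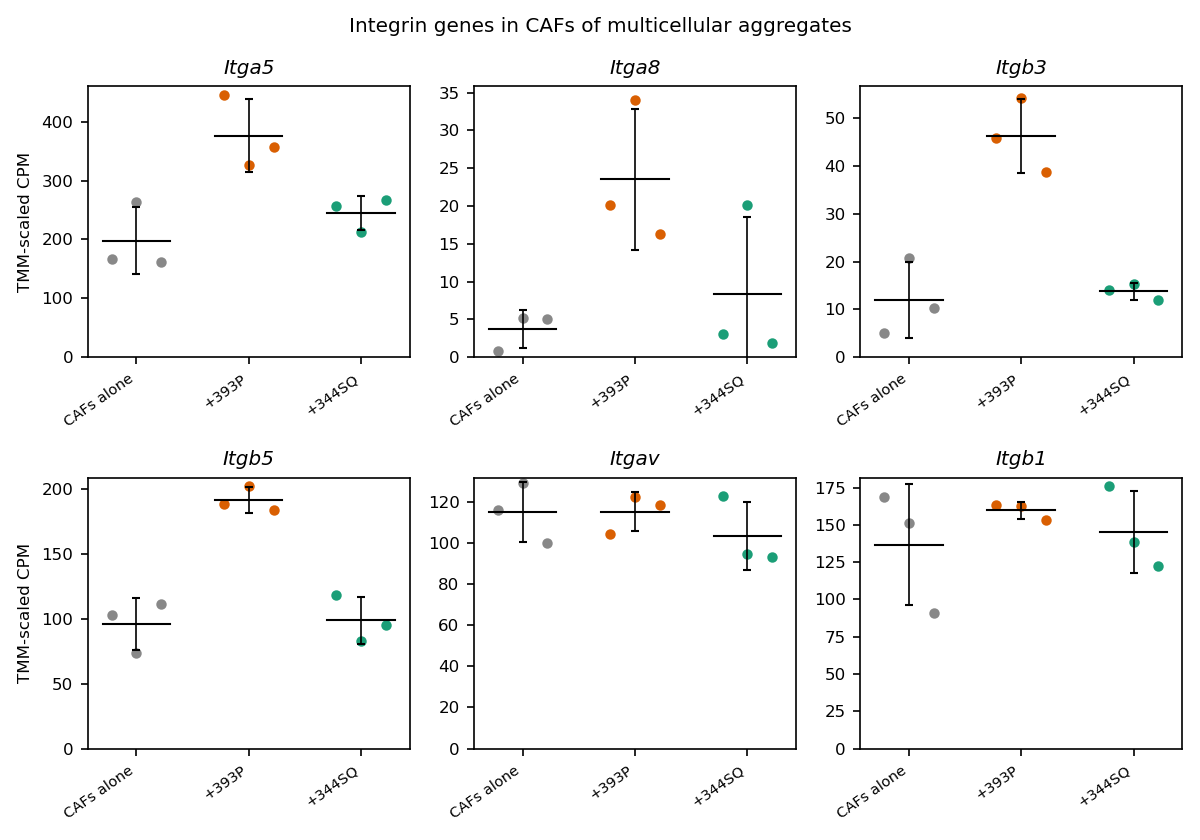
TMM-scaled CPM of the 6 members tested in aggregates, for CAFs alone, with 393P and with 344SQ; points are the 3 replicates of a group, the long bar is the mean and the error bar the SD, and each axis starts at 0. For Itga5, Itga8, Itgb3 and Itgb5 the 393P points lie above all points of CAFs alone, and for Itgav and Itgb1 the groups overlap. Over all 7992 genes tested, 13.3% lie wholly above CAFs alone with 393P.

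Mural, leukocyte and fibroblast markers moved with these genes. The 7 mural markers summed to 23.2 to 32.7 CPM in CAFs alone and to 174 to 261 CPM with 393P, through Notch3 (15.5 to 20.4 against 126 to 158 CPM) and Cspg4 (6.45 to 10.9 against 29.6 to 99.9 CPM). The defining mural genes Rgs5, Abcc9, Kcnj8, Myh11 and Des had 0 to 2 counts in each of these libraries. The leukocyte sum was lower with 393P without overlap, and the 1 tested leukocyte marker, the macrophage gene Cd68, fell (log2 change -1.51 ± 0.43, adjusted p = 0.0179). Fibroblast markers summed to 4066 to 6431 CPM in CAFs alone and 7334 to 8891 CPM with 393P, but not all moved together: of 11 tested, 5 rose and 2 fell. Pdgfrb rose from 350 to 390 CPM in CAFs alone to 1272 to 1866 CPM, while Pdgfra fell from 356 to 686 CPM to 121 to 137 CPM and Dcn from 74.9 to 83.3 CPM to 9.17 to 26.3 CPM. The part of these markers in the result was not tested. Without 393P replicate 3, the library highest in carcinoma markers, all 4 genes were still called higher. Replicates 1 and 2 with 393P still had carcinoma sums of 18.3 and 24.8 CPM, against 5.11 to 9.03 CPM in CAFs alone. The part of carcinoma RNA was therefore not tested by this.

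The genes around the receptors moved as well, with 393P against CAFs alone. Of the 27 tested ligands (30 listed), 14 rose and 4 fell, with a median log2 change of 0.68 against 0.00 over all genes. Over all genes tested, 5.41% were called higher and 5.27% lower. Those with the smallest adjusted p were the Itgav ligand periostin (Postn, 3.49 ± 0.20), collagen VI (Col6a3, 2.66 ± 0.18), fibrillin (Fbn1, 1.94 ± 0.15) and osteopontin (Spp1, 2.33 ± 0.19). Of the 24 tested activators and proteins that bind integrin tails, 6 rose and 1 fell (median 0.29). Tns3, Tns1 and Tln2, tensins and a talin that tie beta tails to actin, rose by 1.59 ± 0.16, 0.98 ± 0.15 and 1.64 ± 0.26, and zyxin (Zyx), a protein of focal adhesions under tension, fell by 0.88. Of 16 membrane partners 4 rose and 4 fell (median 0.09), among them syndecan-2 (Sdc2, 1.66 ± 0.19) and Thy1 (2.08 ± 0.25), which rose, and syndecan-4 (Sdc4, -1.40 ± 0.20), which fell. Among integrins outside the set, the laminin receptor subunit Itga6 rose from 10.6 ± 4.70 to 31.2 ± 2.42 CPM (SD, n = 3; log2 change 1.59 ± 0.34, adjusted p = 0.00145). Itga3 stood at 16.1 ± 5.54 and 16.9 ± 17.4 CPM and Itga2b at 9.05 ± 3.46 and 6.12 ± 5.48 CPM.

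With 344SQ in place of 393P, no member passed the test. The count was 0 of 6 tested in each direction by edgeR, at an adjusted or an unadjusted p under 0.05, and also 0 by DESeq2, and 3.48% of all genes were called higher and 2.36% lower, 5.84% in all. Itga5 stood at 256, 212 and 266 CPM, overlapping the 167 to 263 CPM of CAFs alone, and its log2 difference was 0.32 ± 0.18 (interval -0.03 to 0.68, adjusted p = 0.398). Itgb5 stood at 119, 82.9 and 94.8 CPM (log2 difference 0.03 ± 0.19, interval -0.33 to 0.40) and Itgb3 at 14.1, 15.4 and 11.8 CPM (0.29 ± 0.41, interval -0.52 to 1.09). Itga8 depended on a library: it stood at 20.1 CPM in 344SQ replicate 2 and at 3.01 and 1.82 CPM in the others. Its log2 difference was 1.14 ± 0.75 (adjusted p = 0.497), and -0.50 without that replicate. Itgav stood at 123, 94.8 and 93.0 CPM (-0.15 ± 0.18) and Itgb1 at 176, 139 and 122 CPM (0.09 ± 0.19), both overlapping CAFs alone.

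Other genes of the pathway did change with 344SQ, where 3.48% of all genes were called higher and 2.36% lower. Of 27 ligands 4 rose and 2 fell (median 0.04 against -0.01 over all genes), including Spp1 (2.25 ± 0.19), Fbn1 (1.09 ± 0.15), tenascin-C (Tnc, 1.71 ± 0.30) and the laminin chain Lama4 (0.79 ± 0.16). Of 24 tail-binding proteins and activators 1 rose, Tns3 (0.99 ± 0.16), and 2 fell, Zyx (-1.02 ± 0.18) and vinculin (Vcl, -0.90 ± 0.19, adjusted p = 0.00322, and 0.0548 without replicate 3 of CAFs alone). Of 16 membrane partners 3 rose and 0 fell, Thy1 by 2.06 ± 0.25, Sdc2 by 0.84 ± 0.20 and Cspg4 by 1.46 ± 0.42. The calls of Cspg4 (adjusted p = 0.0344) and of Itga6 (1.21 ± 0.36, adjusted p = 0.0393) were weak. Cspg4 lost its call without any 1 of the replicates of CAFs alone or without 344SQ replicate 1 or 3 (adjusted p = 0.0552 to 0.22), and Itga6 without replicate 1 or 3 of CAFs alone or 344SQ replicate 1 or 2 (0.097 to 0.243).

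Set directly against each other, the lines differed in 3 members. Itgb3 was 0.296 times and Itgb5 0.518 times as high with 344SQ as with 393P, with log2 differences of -1.76 ± 0.33 (adjusted p = 0.000879) and -0.95 ± 0.18 (adjusted p = 0.000759). The 344SQ replicates of both genes, 11.8 to 15.4 and 82.9 to 119 CPM, lay below all 393P replicates, 38.8 to 54.2 and 184 to 202 CPM. Itga5 was also lower, at 212 to 266 against 327 to 445 CPM (-0.62 ± 0.18, adjusted p = 0.0415). The Itga5 call was lost when any 1 of the 344SQ replicates, or 393P replicate 1 or 3, was left out (adjusted p = 0.0558 to 0.248). The 3 called lower of 6 tested compare with 1.94% of all genes called lower, and 0 members were called higher against 2.21% (4.15% in either direction). Over all genes, the 344SQ replicates lay wholly below the 393P replicates in 9.18% and wholly above them in 8.7% (17.9% in all).

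Itga8 differed by -1.61 ± 0.54 between the lines and missed the threshold (adjusted p = 0.105). Without 344SQ replicate 2 the difference was -3.26 and called (adjusted p = 0.00222). Itgav (-0.15 ± 0.18, interval -0.50 to 0.19) and Itgb1 (-0.14 ± 0.19, interval -0.51 to 0.24) overlapped between the lines. Mural markers summed to 42.6 to 52.0 CPM with 344SQ against 174 to 261 CPM with 393P, and their part was not tested. For the lists that follow, the shares over all genes were 2.21% called higher and 1.94% lower. Of 27 ligands 3 were higher and 11 lower with 344SQ than with 393P (median -0.36 against 0.01 over all genes), led by Postn (-3.79 ± 0.20), Col6a3 (-2.20 ± 0.18), Col6a1 (-1.79 ± 0.18) and Col4a1 (-1.64 ± 0.17). Of 24 tail-binding proteins and activators 0 were higher and 5 lower, Tln2 (-2.08 ± 0.27) and Tns1 (-1.06 ± 0.15) with the smallest adjusted p. Of 16 membrane partners 2 were higher and 2 lower, and among them Sdc4 was higher by 0.96 ± 0.20, a call lost without 344SQ replicate 3 (0.62, adjusted p = 0.103).

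The Boyden chamber asked what the same lines changed across a membrane. There the collagen receptor subunit Itga1 fell with both lines, Itga11 fell with 344SQ, and Itgb5 fell with 393P. The filter left 8 of the 10 members to test, all but Itga4 and Itga8. With 344SQ 2 members were called lower and 1 higher, against 7.44% and 7.43% of the 14040 genes tested (14.9% in either direction). With 393P 2 were called lower and 1 higher, against 7.96% and 7.68% (15.6% in either direction). As for replicates, 5.07% of all genes lay wholly below CAFs alone with 344SQ and 4.85% wholly above (9.92% in all). The shares with 393P were 6.3% and 6.07% (12.4% in all).

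Itga1 (ENSMUSG00000042284.9, chromosome 13, 114953096 to 115101964) stood at 29.4, 33.3, 29.8, 31.1 and 37.7 CPM in CAFs alone. With 344SQ it stood at 18.7, 13.5, 13.9, 13.5 and 12.6 CPM, and with 393P at 17.7, 20.2, 16.2, 13.8 and 15.01 CPM. All 10 coculture replicates lay below all 5 of CAFs alone. The log2 changes were -1.15 ± 0.12 with 344SQ (SE, edgeR's quasi-likelihood test, adjusted p = 5.77e-08) and -0.96 ± 0.11 with 393P (adjusted p = 1.09e-06). Itga1 did not pass the test between the lines (-0.19 ± 0.13, interval -0.44 to 0.05). On the same strand 3.68% of its exon bases overlap Gm49395, where reads of the 2 genes cannot be told apart.

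Itga11 (ENSMUSG00000032243.8, chromosome 9, 62677826 to 62783982), a receptor subunit for fibrillar collagen, stood at 15.7, 11.7, 13.8, 13.7 and 16.9 CPM in CAFs alone and at 9.72, 8.47, 8.10, 9.15 and 9.82 CPM with 344SQ. The groups did not overlap (log2 change -0.67 ± 0.15, adjusted p = 0.00335), though the call was lost with any single technical library of each replicate (adjusted p = 0.133 to 0.208). With 393P it stood at 13.5, 7.96, 14.5, 8.94 and 11.1 CPM, overlapping CAFs alone, and did not pass the test (-0.36 ± 0.14, interval -0.63 to -0.08, adjusted p = 0.0881). It was called without 393P replicate 3 (-0.47, adjusted p = 0.0306) or without replicate 2 of CAFs alone (-0.42, adjusted p = 0.0476).

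Itgb5 went the other way from the aggregates. It stood at 116, 77.8, 81.4, 99.9 and 92.6 CPM in CAFs alone and at 58.4, 62.8, 77.8, 63.7 and 74.2 CPM with 393P, where the highest 393P replicate and the lowest of CAFs alone nearly met (log2 change -0.47 ± 0.13, adjusted p = 0.0136). With the first or the second technical library of each replicate alone the call was lost (adjusted p = 0.385 and 0.815). With 344SQ it stood at 71.6, 105, 57.7, 56.6 and 82.5 CPM, overlapping CAFs alone (-0.32 ± 0.13, adjusted p = 0.11). Without 344SQ replicate 2, the highest, the change was -0.48 and called (adjusted p = 0.0039). Its level also varied between technical libraries of a replicate, by up to 3.09-fold with 344SQ, 2.79-fold with 393P and 2.34-fold in CAFs alone (CPM by total counts).

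Itgav rose slightly with both lines, from 530, 716, 657, 556 and 595 CPM in CAFs alone to 769, 707, 779, 741 and 618 CPM with 344SQ and 674, 852, 687, 706 and 761 CPM with 393P. Replicates overlapped, and the log2 changes were 0.24 ± 0.08 (adjusted p = 0.0435) and 0.27 ± 0.08 (adjusted p = 0.0247). The 344SQ call was lost without replicate 1, 4 or 5 of CAFs alone, 344SQ replicate 1, 3 or 4, or 393P replicate 4 or 5 (adjusted p = 0.0512 to 0.127). The 393P call was lost without replicate 1, 4 or 5 of CAFs alone or 393P replicate 2 or 5 (0.056 to 0.09).

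Cell type markers moved in the chamber as well. The fibroblast sum was 12761 to 13485 CPM in CAFs alone, 9173 to 11472 CPM with 344SQ and 9891 to 10690.4 CPM with 393P, and of 11 tested markers 6 fell and 1 rose (Pdgfra) with each line. The 6 endothelial markers summed to 13.1 to 18.0 CPM in CAFs alone, 6.48 to 10.7 CPM with 344SQ and 7.81 to 10.9 CPM with 393P. Kdr, the only endothelial marker tested, fell by 0.89 and 0.77 on the log2 scale, and the defining endothelial gene Cdh5 had 0 or 1 counts in each replicate. Of 4 leukocyte markers tested, 1 fell with each line, Csf1r (-0.65 ± 0.19 with 344SQ and -0.71 ± 0.18 with 393P). The part of these markers in the results of Itga1, Itga11, Itgb5 and Itgav was not tested.

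The remaining members did not pass the test against CAFs alone. Itgb1, the most abundant per kb, had medians of 580, 605 and 570 CPM in CAFs alone, with 344SQ and with 393P, and log2 differences of 0.08 ± 0.07 (interval -0.05 to 0.21) and 0.02 ± 0.07 (interval -0.11 to 0.15). Itga5 stood at 66.5 to 76.0 CPM in CAFs alone, 62.1 to 110 CPM with 344SQ and 57.3 to 66.6 CPM with 393P. Itgb3 had 8 to 33 counts per replicate (1.66 to 4.57 CPM), with log2 differences of 0.10 ± 0.26 and 0.06 ± 0.25. Itga7 (ENSMUSG00000025348.8), the laminin receptor subunit, had 6 to 40 counts. Its 393P replicates, 1.97 to 2.36 CPM, all lay below the 2.49 to 4.97 CPM of CAFs alone (-0.68 ± 0.27, adjusted p = 0.0845). Itga8 had 0 to 10 counts per replicate (up to 1.24 CPM) and was not tested.

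Between the lines in the Boyden chamber, Itga5 was higher with 344SQ than with 393P (0.37 ± 0.10, adjusted p = 0.037) and 0 members were lower, against 2.52% and 1.36% of all genes (3.88% in either direction). The replicates overlapped, with 110 CPM in 344SQ replicate 2 and 62.1 to 80.2 CPM in the other 344SQ replicates. Its call was lost without replicate 4 of CAFs alone, 344SQ replicate 1, 2 or 5, or 393P replicate 1, 2, 4 or 5 (adjusted p = 0.052 to 0.131), and without 344SQ replicate 2 the difference was 0.21. Itga5 is the only member called between the lines in both formats, and the sign of the difference was opposite in them.

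**Figure D3:**
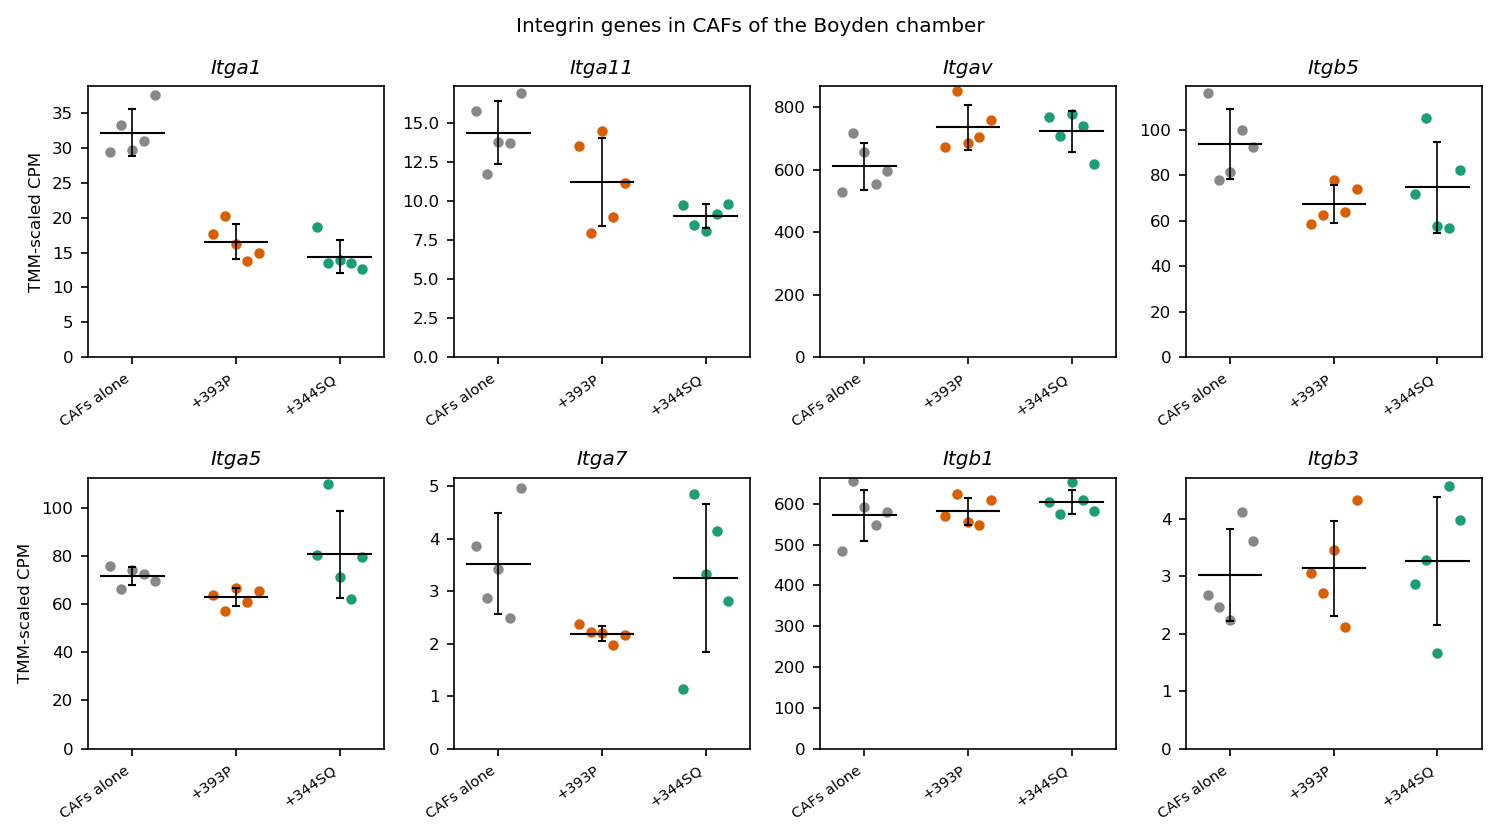
TMM-scaled CPM of the 8 members tested in the Boyden chamber, for CAFs alone, with 393P and with 344SQ; points are the 5 biological replicates (3 technical libraries summed), the long bar is the mean and the error bar the SD, and each axis starts at 0. All coculture points of Itga1 (12.6 to 20.2 CPM) lie below those of CAFs alone (29.4 to 37.7 CPM), and the groups of Itgb1 overlap.

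Ligands and tail-binding proteins fell more often than they rose in the Boyden chamber. Over all genes tested there, 7.68% were called higher and 7.96% lower with 393P, and 7.43% and 7.44% with 344SQ. With 393P, 3 of 28 tested ligands rose and 17 fell (median log2 change -0.29 against 0.00 over all genes), and 0 of 26 tail-binding proteins and activators rose and 13 fell (median -0.18). With 344SQ the counts were 5 and 14 ligands (median -0.22) and 1 and 8 tail-binding proteins and activators (median -0.13). Spp1 rose with both, by 2.24 ± 0.09 and 2.48 ± 0.09, and Vcam1, an Itga4 ligand, rose with 344SQ by 1.09 ± 0.06. Among those that fell were fibrillar collagen Col3a1 (-0.61 ± 0.07 with 393P and -0.90 ± 0.07 with 344SQ), the adhesion adaptor Nedd9 (-0.69 ± 0.07 and -0.77 ± 0.07) and Vcl (-0.41 ± 0.05 and -0.52 ± 0.05). Membrane partners gave 1 higher and 6 lower of 16 with 393P, and 2 higher and 6 lower with 344SQ. Sdc4 rose with both (0.38 ± 0.07 and 0.50 ± 0.07), and caveolin-1 (Cav1) fell with 344SQ by 0.45. The comparisons with CAFs alone share those libraries. Between the lines, Vcam1 and Tnc were higher with 344SQ by 0.66 ± 0.06 and 0.97 ± 0.09. There 0 of 26 tail-binding proteins and activators were called, against 3.88% of all genes in either direction.

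Other integrins of the Boyden chamber were of moderate or low level. Itga3, a laminin receptor subunit, fell from 49.2 ± 5.23 CPM (SD, n = 5) to 34.5 ± 5.91 with 344SQ (log2 change -0.50 ± 0.10, adjusted p = 0.00086) and 36.4 ± 3.19 with 393P (-0.43 ± 0.10, adjusted p = 0.00283). Itga6 stood at 23.6 ± 5.10, 31.0 ± 2.35 and 30.3 ± 5.25 CPM, and its calls (adjusted p = 0.0361 and 0.0465) were lost when any of several replicates was left out (0.0504 to 0.172). Those were replicates 1, 4 and 5 of CAFs alone in both comparisons, 344SQ replicates 1, 3 and 4 with 344SQ, and 344SQ replicate 1 and 393P replicates 1, 2, 4 and 5 with 393P. Of the low subunits, the leukocyte subunit Itgb2 was called higher with 344SQ (1.03 against 2.31 CPM, log2 change 1.14 ± 0.34, adjusted p = 0.0233). Itgb6 was called lower with 393P (4.91 against 3.01 CPM, -0.71 ± 0.22, adjusted p = 0.0277). Both calls were lost without single replicates. For Itgb2 these were replicate 2 or 5 of CAFs alone and 344SQ replicate 2, 4 or 5 (adjusted p = 0.0542 to 0.0701). For Itgb6 they were replicate 4 or 5 of CAFs alone and 393P replicate 1, 2 or 3 (0.0596 to 0.0849). Itga2, Itga2b, Itga9, Itga10, Itgb4 and Itgb7 had mean levels of 1.25 to 5.79 CPM in all 3 groups and were not called.

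Whether a line acted differently in the 2 formats was tested in a joint fit of the aggregate and Boyden tables. It tested 9 members and 15193 genes in all. The formats share an estimate of spread in this fit, with a biological coefficient of variation of 9.50%. Fitted apart, aggregates had 16.2% and Boyden sums 8.58%. Errors of the joint fit can therefore be too small for the aggregates. For Itgb1 with 393P the SE was 0.18 in the joint fit and 0.19 in aggregates alone. The effect of 393P was more positive in aggregates for Itga5, Itga8, Itgb3 and Itgb5, with differences between the log2 changes of 1.22 ± 0.19 (adjusted p = 6.47e-06), 3.46 ± 0.87 (0.00611), 2.09 ± 0.43 (0.000498) and 1.53 ± 0.23 (4.07e-06). Itga8 entered this fit only through the aggregates, where it was high with 393P, and without it 3 of 8 members were called in that direction and 0 in the other. Over all genes the shares were 5.33% and 3.66% (8.99% in all). Itgb5 rose with 393P in aggregates (0.99) and fell in the chamber (-0.47). The Itga8 difference rests on 0 to 10 counts per Boyden replicate and was not called with the first technical library of each replicate alone (3.44, adjusted p = 0.0998). Itga11 had a difference of -2.32 ± 0.81 (adjusted p = 0.0623), called without Boyden 393P replicate 2 (-2.43, adjusted p = 0.0397). Itgav (-0.19 ± 0.18, interval -0.54 to 0.17) and Itgb1 (0.27 ± 0.18, interval -0.08 to 0.62) did not pass.

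For 344SQ 1 member was called, Itga1, with a difference of 2.01 ± 0.52 (adjusted p = 0.014), against 2.61% of all genes called in that direction and 2.13% in the other (4.73% in all). It had 2 to 11 counts per aggregate library of CAFs alone and with 344SQ. Its call was lost without aggregate replicate 2 or 3 of CAFs alone or aggregate 344SQ replicate 1 or 2 (1.74 to 1.95, adjusted p = 0.053 to 0.0688). The differences for Itga5, Itgb3 and Itgb5 were 0.21 ± 0.19, 0.24 ± 0.50 and 0.39 ± 0.25, and none was called. The share of called genes that were higher depended on scaling in these fits: 59.3% for 393P and 55.1% for 344SQ with TMM, and 47.3% and 39.8% with total counts alone.

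**Figure D4:**
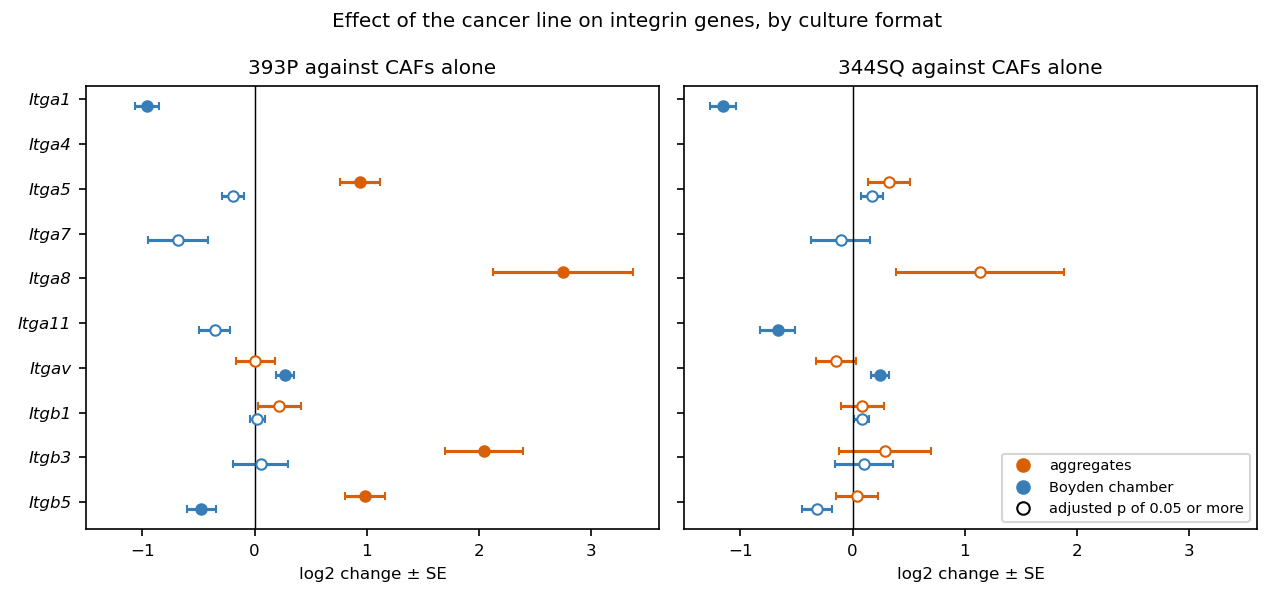
Log2 change ± SE of each member with 393P (left) and 344SQ (right) against CAFs alone, in aggregates (orange) and in the Boyden chamber (blue); filled points have an adjusted p under 0.05, and members not tested have no point. With 393P the orange points of Itga5, Itga8, Itgb3 and Itgb5 lie to the right of 0 (0.94, 2.75, 2.05 and 0.99), and in the chamber Itga1 lies to the left with both lines (-0.96 and -1.15).

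Between the formats, CAFs alone differed in 65.4% of all genes (28.4% higher and 37% lower in aggregates), and 8 of 9 tested members were called, 4 higher and 4 lower. The higher share of called genes was 43.4% with TMM and 29.9% with total counts alone, and the median log2 difference of all genes was -0.22 with TMM, -0.16 with DESeq2-type size factors and -0.63 with total counts alone. Relative to the TMM median, Itga5 was higher by 2.09, Itgb3 by 2.52, Itga8 by 3.01 and Itgb5 by 0.71, and Itga1, Itgav, Itgb1 and Itga11 differed by -1.91, -1.76, -1.40 and -0.57. Itgb5 (0.49 ± 0.18 before that shift, adjusted p = 0.0146) was not called with total counts alone (0.08) or without aggregate replicate 1 (0.39) or 3 (0.36) of CAFs alone. Itga8 was not called without aggregate replicate 3 of CAFs alone (2.36, adjusted p = 0.0618). Itga11 (adjusted p = 0.0463) lost its call without any 1 aggregate replicate of CAFs alone, Boyden replicate 1, 3, 4 or 5 of CAFs alone, Boyden 344SQ replicate 1 or 2, or Boyden 393P replicate 5 (0.0503 to 0.118). The integrin-linked kinase gene Ilk, which encodes a protein of the beta tail, had 70 to 164 counts in every aggregate library and 0 or 1 in every Boyden sum. The tables list the same gene IDs, versions included. Whether reads were otherwise counted with the same annotation and settings was not tested. This bears on every value set between the formats, those of the members included. These values come from the same joint fit, whose errors can be too small for the aggregates. Culture format, table, depth and library batch cannot be told apart here.

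The shRNA set asked what Zeb1, a repressor of epithelial genes, in the 344SQ cells changed in the CAFs. The Zeb1 level was 69.9, 102 and 49.0 CPM with shCTL and 140, 47.1 and 117 CPM with shZEB1 (log2 difference 0.47 ± 0.53, adjusted p = 0.896). The hairpin was in the cancer cells, which the sort depletes, so these levels do not test the knockdown. No member passed the test: 0 of 7 tested were called in either direction, and 0% of the 7801 genes tested were called. At an unadjusted p under 0.05 there were 466 genes, and DESeq2 called 26.

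Itgb3 was the member with the largest log2 difference among the 7 tested, at 25.9, 20.7 and 49.0 CPM with shCTL and 159, 55.7 and 61.8 CPM with shZEB1. All shZEB1 replicates lay above all shCTL replicates, as in 6.18% of the 7801 genes tested (5.49% lay wholly below, 11.7% in all). The log2 difference of Itgb3 was 1.54 ± 0.61 (interval 0.35 to 2.73, adjusted p = 0.799). Without the 3 libraries rich in carcinoma markers, a choice made after seeing the data, the difference was 2.77 (adjusted p = 0.00465). That fit left 2 shCTL libraries and 1 shZEB1 library, whose spread is assumed to equal that of the others, so it has no replicate check in the shZEB1 group and does not support a difference. Itga5 ranged from 35.8 to 232 CPM with shCTL and from 117 to 492 CPM with shZEB1 (1.03 ± 0.64, interval -0.21 to 2.28). Its lowest value was in shCTL replicate 3, the library with the highest carcinoma sum.

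Itgb1 stood at 68.5, 134 and 82.9 CPM with shCTL and 129, 201 and 123 CPM with shZEB1 (0.67 ± 0.46), and Itgb5 at 153, 81.3 and 75.3 CPM and 177, 174 and 93.6 CPM (0.52 ± 0.48). Itgav ranged from 65.2 to 116 CPM and from 75.7 to 92.3 CPM (-0.13 ± 0.46), and Itga8 from 5.65 to 14.0 CPM and from 3.12 to 9.998 CPM (-0.58 ± 0.83). In all 4 the groups overlapped. Itga1 and Itga7 were highest in the carcinoma-rich shCTL replicate 3, where Itga1 stood at 75.3 CPM against 19.7 to 37.1 CPM in the other 5 libraries. Itga7, which was not tested, stood there at 79.1 CPM against 1.43 to 7.98 CPM. Its lowest value was in shZEB1 replicate 2, also rich in carcinoma markers, where Itga1 stood at 37.1 CPM. The part of carcinoma RNA, or of cells with mural or leukocyte markers, in these values was not tested. Itga11 had 0 to 7 and Itga4 0 to 4 counts per library.

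**Figure D5:**
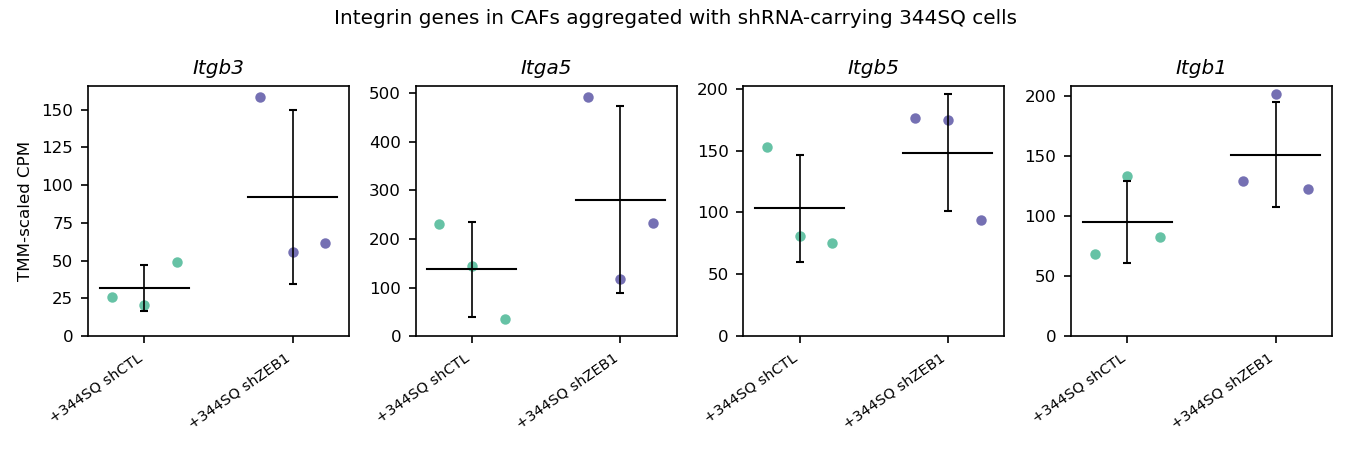
TMM-scaled CPM of Itgb3, Itga5, Itgb5 and Itgb1 in CAFs aggregated with 344SQ cells carrying a control hairpin or one against Zeb1; points are the 3 replicates of a group, the long bar is the mean and the error bar the SD, and each axis starts at 0. For Itgb3 the shZEB1 points (55.7 to 159 CPM) lie above the shCTL points (20.7 to 49.0 CPM), and for the other 3 genes the groups overlap. Over all 7801 genes tested, 6.18% lie wholly higher with shZEB1.

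The wider pathway gave no call in the shRNA set, with 0 of 28 ligands, 0 of 24 tail-binding proteins and activators and 0 of 16 membrane partners called. The most abundant ligands, Fn1 and Thbs1, had high levels in both groups. Fn1, the fibronectin gene, stood at 8483 ± 5231 CPM with shCTL (SD, n = 3) and 12470.2 ± 5327 with shZEB1, and Thbs1, which encodes thrombospondin-1, at 1025 ± 544 and 1547 ± 90.9 CPM. The talin gene Tln1 stood at 340 ± 77.9 and 371 ± 171 CPM and Tns1 at 261 ± 149 and 410 ± 145 CPM. Among integrins outside the set, Itga2 stood at 163 ± 254 CPM with shCTL and 28.3 ± 31.8 with shZEB1, Itga3 at 102 ± 124 and 48.6 ± 22.8, Itga6 at 126 ± 120 and 52.6 ± 13.3, and Itga9 at 15.8 ± 10.6 and 8.67 ± 3.8. Their shCTL values ranged from 8.65 to 457, 14.6 to 245, 37.6 to 262 and 3.77 to 23.8 CPM. Itga2, Itga3 and Itga6 were highest, and Itga9 lowest, in shCTL replicate 3, the library with the highest carcinoma sum. The groups overlapped, and the part of carcinoma RNA was not tested. Itgb7, a leukocyte integrin subunit, stood at 18.5 ± 6.22 CPM with shCTL and 2.48 ± 1.48 with shZEB1 (log2 difference -2.91 ± 0.91, adjusted p = 0.692), with no overlap. Over all genes tested, 5.49% lay wholly lower with shZEB1.

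Genes whose level followed a member most closely were sought over the 24 replicates of the aggregate and Boyden tables, each table centred on its own mean, for the 5 members that passed the filter in both. Of 7243 genes compared, Tns1 (Pearson r = 0.896) and Col6a2 (0.874) were most like Itgb5, and Ifi204 (0.902) and the sterol regulator gene Srebf2 (0.898) most like Itgb3. Fam129b (0.876) and Slc43a2 (0.874) were most like Itga5, Nus1 (0.881) and Lmbr1 (0.848) most like Itgb1, and Dhx9 (0.858) and Xpo1 (0.828) most like Itgav. The points of these correlations share libraries and groups, so they describe the pattern only.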

How the data were processed

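Bulk RNA sequencing of sorted mouse CAFs gave 60 libraries in 3 tables of read counts per gene, which the authors deposited without normalization. Reads were aligned with STAR and counted with HTSeq on mm10, per the submitters' processing notes. The sources used here give no tool version, annotation or strand setting. Totals ranged from 289848 to 3785291 counts for the 45 technical Boyden libraries, which were summed to 15 replicates because technical libraries are not independent.

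From the counts, each table was scaled by TMM and filtered with filterByExpr, and groups were compared with edgeR's quasi-likelihood test (edgeR 4.0.16, R 4.3.3), with all groups of a table in a fit and Benjamini-Hochberg adjustment over all genes tested. Genes were called at an adjusted p under 0.05. Intervals are nominally 95% and come from the SE of the log2 change by a normal approximation. With few replicates they can be too narrow, so an interval that leaves out no change can go with an unadjusted p above 0.05. Aggregates and Boyden sums were also fitted together, with the difference of a line's effect between formats as the contrast. Replicates varied most in the shRNA set, with a biological coefficient of variation of 61.7% against 16.2% (aggregates) and 8.58% (Boyden sums). The joint fit of aggregates and Boyden sums gave 9.50%. CPM are TMM-scaled, and lengths, positions and overlaps come from GENCODE M21 on GRCm38, matched by gene ID without version. Promoters are RefSeq windows on GRCm38.p6. Likeness was Pearson's r of log2(CPM + 1) over genes with a mean of at least 10 CPM.

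The members and all gene lists were chosen with earlier results of these data known. All 10 members were named. For each list, up to 4 called genes of smallest adjusted p were named, or the most abundant where none was called, with the other integrin subunits that passed the filter and the 2 genes most like each member. Alternatives were RLE scaling, total counts, no filter, DESeq2 1.42.0, limma-voom (limma 3.58.1), a replicate block, removal of ribosomal RNA-like and mitochondrial genes, only the compared groups, single technical libraries and leaving out each replicate. The fit code was tested on simulated data, and plots were made in Python 3.11.15 (matplotlib 3.10.9).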

Additional observations from a re-analysis of the deposited data

Results flagged for a closer look

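A single library stood away from its group: Itga1 in Boyden 344SQ replicate 1 stood at 18.7 CPM against 12.6 to 13.9 CPM in the other 4, a gap of 0.787 of the range of the group. A gap of this kind is met by chance in about 1 in 20 groups. It was looked for in 8 members and 3 Boyden groups, so a single case among them is not unusual. The replicate still lay below every replicate of CAFs alone.

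The effect of a line differed between the culture formats for 5 members, by the interaction term of the joint fit. For 393P the log2 change was larger in aggregates by 1.22 for Itga5, 3.46 for Itga8, 2.09 for Itgb3 and 1.53 for Itgb5. For 344SQ it was larger by 2.01 for Itga1. The Itga8 and Itga1 calls were weak. Itga8 entered the fit only through the aggregates, had few reads in the chamber and was not called with technical library 1 alone. Itga1 had few reads in the aggregates, and its call was lost with technical library 1 alone or without single aggregate replicates. Format, table, depth and library batch cannot be told apart in these differences.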

How the results depend on the processing

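Itga5, Itga8, Itgb3 and Itgb5 were called higher with 393P in aggregates under every alternative run. The number of members called was less stable in the Boyden chamber. Between the lines it went from 1 higher to 0 with the replicate block, with only the 2 groups compared and with each technical library alone, and leaving out replicates gave 0 to 1. With 344SQ against CAFs alone, members called higher went from 1 to 0 with only the 2 groups compared and with technical library 1 or 3 (leave-outs 0 to 1), and members called lower from 2 to 1 with each technical library. With 393P against CAFs alone, members called higher went from 1 to 0 with technical library 2 or 3 (leave-outs 0 to 1), and members called lower from 2 to 4 with only the 2 groups compared and to 1 with technical library 1 or 2. For the 344SQ effect between formats, members called higher went from 1 to 0 with technical library 1 (leave-outs 0 to 1). For the 393P effect, leave-outs gave 0 to 1 members called lower, and for CAFs alone between formats 2 to 4 called higher. In the shRNA set 1 member was called higher without the 3 carcinoma-rich libraries, in a fit with 1 shZEB1 library. Technical libraries 2 and 3 alone, and that last setting, were chosen after seeing the data. The cause of these changes was not tested. Single technical libraries held fewer counts than the sums, and the part of depth was not tested either.

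Signs reversed only for differences that were not called. With total counts these were Itgav with 393P in aggregates (-0.024), Itgb5 with 344SQ in aggregates (-0.0090), Itgav in the shRNA set (0.083), Itga7 between formats (-0.35) and Itgb1 for the 344SQ effect (-0.053). Itgav with 393P in aggregates was -0.0055 with only the 2 groups compared, and Itgav in the shRNA set 0.13 without the 3 carcinoma-rich libraries. Itga7 between formats was -0.10 with no filter and -0.051 with limma-voom. With technical library 1 Itgb1 for the 344SQ effect was -0.13. With library 2, Itga5 and Itgb1 with 393P in the chamber were 0.011 and -0.036, and Itga1 and Itgav between the lines there 0.15 and 0.33. With the last of the 3, Itgb1 between the lines was -0.056. Leaving out replicates reversed more of them. In aggregates with 344SQ the ranges were -0.50 to 1.65 for Itga8, -0.16 to 0.27 for Itgb1, -0.15 to 0.86 for Itgb3 and -0.12 to 0.14 for Itgb5, and with 393P -0.10 to 0.082 for Itgav and -0.017 to 0.40 for Itgb1. In the chamber they were -0.32 to 0.12 for Itga7 and -0.046 to 0.26 for Itgb3 with 344SQ, and -0.026 to 0.077 for Itgb1 and -0.092 to 0.20 for Itgb3 with 393P. Between the lines there they were -0.060 to 0.031 for Itgav, -0.11 to 0.20 for Itgb3 and -0.015 to 0.23 for Itgb5. In the shRNA set they were -0.91 to 0.051 for Itga1 and -0.33 to 0.042 for Itgav. Between formats they were -0.31 to 1.53 for Itga1 (393P effect), -0.076 to 2.10 for Itga8, -0.19 to 0.27 for Itgb1 and -0.17 to 0.81 for Itgb3 (344SQ effect), and -1.22 to 0.41 for Itga7 (CAFs alone). Of 114 named results of list genes, 78 kept their call and direction in every setting and 0 reversed.

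Replicate numbers did not clearly pair the samples: deviations of same-numbered samples correlated at -0.03 to 0.07 in aggregates, -0.30 to 0.26 in the chamber and -0.03 to 0.13 in the shRNA set. Pairs with different numbers gave -0.08 to 0.08, -0.37 to 0.41 and -0.15 to 0.08. In the chamber some samples of different groups thus shared deviations that the numbers do not follow, and the cause was not tested. With the replicate block Itga5 between the lines lost its call in aggregates (adjusted p = 0.058) and in the chamber (0.0888), and Itga8 between the lines in aggregates gained one (0.0407). Counts over all genes moved by over 1.5 times in some settings. In the shRNA set they went from 0 to 90 with no filter, 26 with DESeq2, 1 with the replicate block and 86 without the 3 carcinoma-rich libraries. With limma-voom they went from 1366 to 904 for the 393P effect and from 719 to 443 for the 344SQ effect. With technical library 1 alone those effects gave 821 and 372 genes. In the chamber technical library 1, 2 and 3 alone gave 71, 280 and 152 of 545 genes between the lines, and single libraries gave 199 to 1132 where the sums gave 2087 and 2195 against CAFs alone. In aggregates with 344SQ, 467 genes became 286 without replicate 3 of CAFs alone. Few reads were counted for Itga1, Itga4, Itga7, Itga8 and Itga11 in aggregates and for Itga4, Itga7, Itga8 and Itgb3 in the chamber, which limits their values. Whether depth or a low level of the gene lay behind this was not tested.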
